A study of Mus musculus with 28 samples.

Results

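The livers of mice fed a high fat diet with a mixture of quercetin and resveratrol (HQR) were compared with the livers of mice fed the same diet with quercetin alone (HQ). The arrays were chosen by their titles, 6 HQR and 5 HQ arrays of 28 in the series. All mice were male C57/6J, began their diets at 7 weeks of age and stayed on them for 26 weeks, to an age of 33 weeks. HQ mice received 0.4% quercetin (4 g per kg of diet), and HQR mice 0.2% quercetin with 0.2% resveratrol (2 g of each per kg). The total dose of compound was therefore the same, while HQR mice had a lower dose of quercetin and an added dose of resveratrol, and these changes cannot be told apart. The remaining groups were fed a standard diet (SD, 5 mice), the high fat diet alone (HFD, 6 mice) or the high fat diet with 0.4% resveratrol (HR, 6 mice). Per the labels, 2 RNA samples of the study were degraded and were not hybridised. Each array held RNA of 1 liver.

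Quercetin is a flavonol and resveratrol a stilbene, both plant polyphenols. In the liver both are rapidly conjugated with glucuronic acid and sulfate. Resveratrol has been studied as an activator of the deacetylase SIRT1 and of the kinase AMPK, and both compounds as ligands of the aryl hydrocarbon receptor and inducers of NRF2 targets. A liver on a high fat diet stores triglyceride in lipid droplets under the control of PPARgamma, makes cholesterol under the transcription factor SREBP-2, and can show a low level of interferon-stimulated transcription.

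Levels are log2 processed signals minus the array's own 75th percentile, so that a difference of 1 is a 2-fold difference in signal. Between 59.3% and 71.1% of the probes were well above background on HQ arrays and between 64.0% and 79.5% on HQR arrays (means 65.3 ± 4.28 and 71.3 ± 5.51, SD). The difference of 6.01 percentage points had p = 0.0779 in an exact two-sided permutation test over 462 assignments (0.234 after Benjamini-Hochberg adjustment over 3 quality measures, smallest possible p 0.0022). The liver's defining markers were present: 13 of 14 hepatocyte markers were measured, and each was well above background on all 11 arrays. Alb, the gene of serum albumin, differed by -0.11. In whole liver, fewer cells of a type and less RNA per cell cannot be told apart.

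Some arrays stood apart from the others. The 11 arrays lay on 8 slides scanned on 4 days. Slides 1 and 2 held 1 array of each group, and HQ replicate 5 was scanned on day 4 with HQR replicates 3 to 6. The first principal component of the 11 arrays held 46.3% of the variance, with HQR replicate 1 farthest out (median correlation with the other arrays 0.935), and the second held 13.9%, with HQR replicate 4 farthest out (0.960). HQ replicate 1 had a summed level of smooth and striated muscle markers of 4.60 relative to the mean array, against 0.54 to 0.94 on the other HQ arrays and 0.63 to 1.11 on HQR arrays. Pairs of arrays of the same group had a median correlation of 0.962, pairs of different groups 0.969, and the 3 pairs on one slide 0.976.

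The comparison asked how the mixture differed from quercetin alone on the same diet, and no single gene passed the threshold with 6 and 5 livers, the numbers that limit the precision of these arrays. Of 21850 genes tested, 0 (0%) passed an adjusted p of 0.05 in limma, and 312 had an unadjusted p under 0.05, a count that chance alone would bring to 1092.5. Of these, 210 were higher in HQR (0.961% of all genes) and 102 lower (0.467%). The smallest adjusted p was 0.432, for Grin3b, and the next was 1.00. Every HQR array was above every HQ array for 15 genes (0.069% of the 21727 genes with a value on all 11 arrays) and below for 14 genes (0.0644%). Were the arrays exchangeable, 1 of the 462 assignments would separate the groups in each direction, a larger share of genes than either seen. A lack of overlap in a gene is therefore a description only. The median difference over all genes was 0.04, with 57.4% of genes above 0. The 95% interval of a gene had a median half-width of 0.59, and lay within 1 of zero on both sides for 15365 genes. A 2-fold difference lies outside the interval for those genes. For the others the interval reached a 2-fold difference or beyond in at least 1 direction. The count of unadjusted p-values was 602 without HQ replicate 1 and 566 without HQ replicate 2, and the count of non-overlapping genes, 29 in all, was 165 and 100 without these arrays. Without HQ replicates 4 or 5 or HQR replicates 1, 3 or 4 the latter was 55, 59, 72, 58 and 56. Leaving out an array also makes it easier for groups not to overlap.

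Of the genes with the smallest p-values that were lower in HQR, none passed the adjusted threshold. Grin3b, which encodes an NMDA receptor subunit, was at -0.27, -0.20, -0.21, -0.58 and -0.08 in HQ replicates 1 to 5. In HQR livers it ranged from -2.70 to -0.97 with a median of -1.56, so that the groups did not overlap. Its difference was -1.44 ± 0.28 (SE), or 2.71-fold lower in HQR (unadjusted p = 1.98e-05, limma). It was -1.11 within slide 1, -0.77 within slide 2 and -1.89 within scan day 4. HR livers, which also received resveratrol, were at -1.47 ± 0.18 (SD, n = 6) and HFD livers at -0.38 ± 0.50 (SD, n = 6). The mean level of Grin3b in HQ livers was thus closest to that in HFD livers, and the level in HQR livers closest to that in HR livers; these other groups are shown as levels only.

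Ntrk2, which encodes the neurotrophin receptor TrkB, was at -3.18, -2.92, 0.04, -4.40 and -6.02 in HQ replicates 1 to 5 and between -6.81 and -5.74 (median -6.35) in HQR livers. Only HQ replicate 5 lay within the range of the HQR livers. It was well above background on 3 of 5 HQ and 0 of 6 HQR arrays, and at least 2.26-fold lower in HQR, the ratio of the HQ mean to the lowest signal well above background on each HQR array, or to the gene's own signal where that was higher. The fitted difference was -2.99 ± 0.68 (unadjusted p = 0.000171, limma), and within scan day 4, where the HQ array was replicate 5, it was -0.43. Ntrk2 was also well above background on 0 of 6 HR arrays, and on 6 of 6 HFD arrays.

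**Figure D1:**
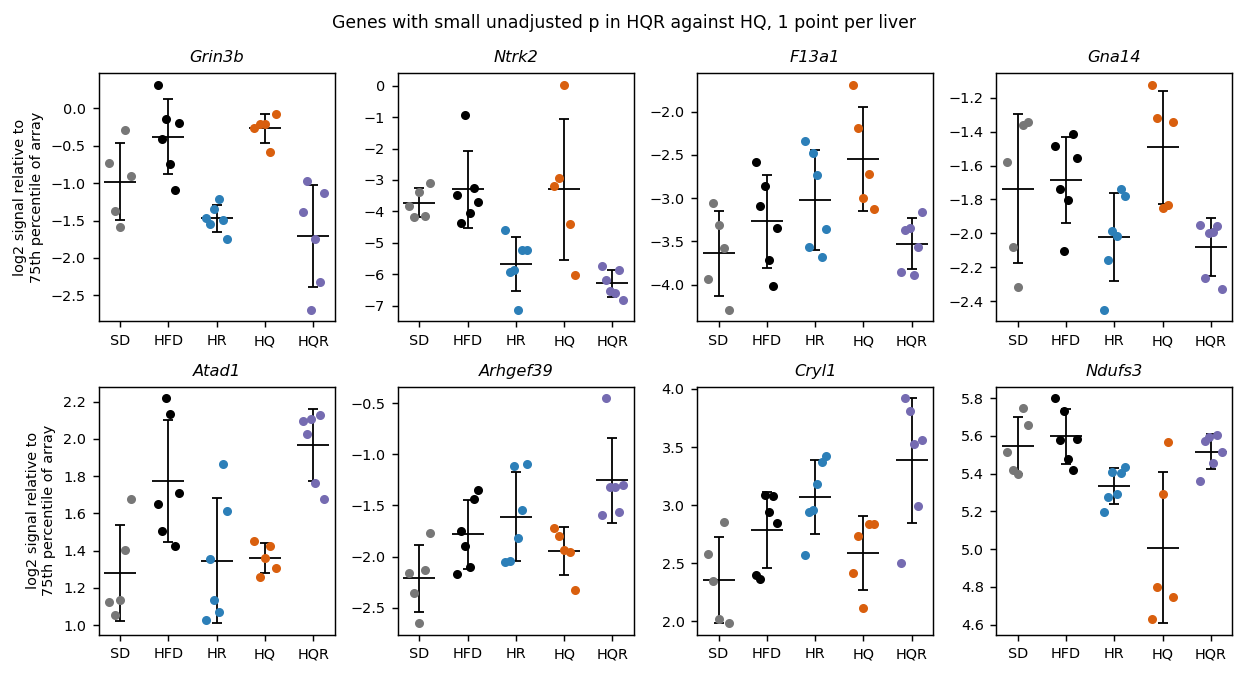
Log2 signal minus the array's 75th percentile (vertical axes) for 8 of the genes with the smallest unadjusted p, in the 5 diet groups (horizontal axes), with 1 point per liver and bars for the mean ± SD. Grin3b, F13a1 and Gna14 are lower in each HQR liver than in each HQ liver, and Atad1 and Arhgef39 higher; none of the 8 passed the adjusted threshold.

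F13a1, the gene of the A subunit of coagulation factor XIII, which macrophages also make, was at -1.69, -2.19, -3.0, -2.73 and -3.13 in HQ replicates 1 to 5 and between -3.89 and -3.16 (median -3.46) in HQR livers. The groups did not overlap, though HQ replicate 5 and the highest HQR liver differed by little, and the difference was -0.98 ± 0.30. Gna14, which encodes a G protein alpha subunit of the Gq class, was at -1.12, -1.32, -1.85, -1.84 and -1.34 in HQ livers and between -2.33 and -1.95 (median -1.99) in HQR livers. Its difference of -0.59 ± 0.19 was -0.82 within slide 1, -0.94 within slide 2 and -0.73 within scan day 4. The other genes of this kind were Apoa4 (-1.47 ± 0.49), Cabp2 (-1.23 ± 0.42), Smtnl2 (-0.70 ± 0.24), Slc17a3 (-0.51 ± 0.18) and Capn6 (-0.92 ± 0.32), whose groups overlapped or, for Slc17a3, had no value in HQ replicate 1. Cabp2, a calcium-binding protein gene, was at -0.83 in HQ replicate 1 and between -4.22 and -3.11 in the other HQ livers. Slc17a3, a transporter gene, was 0.25 higher in HQR when all its probes were averaged.

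In the other direction, Atad1, which encodes an ATPase of the outer mitochondrial membrane, was at 1.45, 1.26, 1.36, 1.42 and 1.31 in HQ replicates 1 to 5. In HQR livers it ranged from 1.68 to 2.13 (median 2.06), with no overlap. Its difference of 0.61 ± 0.17 (unadjusted p = 0.00171, limma) was 0.65 within slide 1, 0.77 within slide 2 and 0.61 within scan day 4. HFD livers were at 1.78 ± 0.33 and HR livers at 1.35 ± 0.34 (SD, n = 6 each). Atad1 was thus close to the HR level in HQ livers and close to the HFD level in HQR livers.

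Arhgef39, a guanine nucleotide exchange factor gene, was between -2.33 and -1.72 in HQ livers and between -1.59 and -0.45 in HQR livers (median -1.32), a difference of 0.69 ± 0.22. Cryl1, which encodes a crystallin-related dehydrogenase of the liver, differed by 0.80 ± 0.24, with HQR replicate 1 at 2.50 among HQ livers at 2.12 to 2.84. Ndufs3, which encodes a core subunit of respiratory complex I, was at 4.63, 4.80, 5.29, 5.57 and 4.75 in HQ livers and between 5.36 and 5.60 (median 5.54) in HQR livers. Its difference of 0.51 ± 0.15 was 0.73, 0.77 and 0.80 within slide 1, slide 2 and scan day 4. HFD livers stood at 5.60 ± 0.15 (SD, n = 6), and HQ replicates 1, 2 and 5 held the lowest values of the 11 livers. Lactb2, a mitochondrial nuclease gene, differed by 0.54 ± 0.18 and was -0.06 within slide 1.

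Of the 10 named genes with the smallest p among those higher in HQR, Gsta2 is described with the conjugating enzymes and 4 were dim. Timd4, which encodes a phosphatidylserine receptor of Kupffer cells, was well above background on 0 of 5 HQ and 5 of 6 HQR arrays and was at least 1.22-fold higher in HQR (fitted difference 1.1 ± 0.36). Of 17 Kupffer cell and macrophage markers it was the 1 with an unadjusted p under 0.05, and the summed level of these markers was 0.80 to 1.17 on HQ and 0.85 to 1.12 on HQR arrays. Vmn1r89, Olfr599 and Olfr282, genes of vomeronasal and olfactory receptors, were also well above background on 0 of 5 HQ arrays. They were at least 1.09-fold, 1.28-fold and 1.49-fold higher. A probe was kept if well above background on at least 5 of the 28 arrays. Vmn1r89 was so on 5 HQR, 2 HR, 1 HFD and 0 SD arrays, and Olfr599 on 4, 1, 1 and 0. Neither would have been kept without its HQR arrays, and the filter's part in their rank and bounds was not tested. Olfr282 (4 HQR, 1 HR, 4 HFD and 0 SD arrays) and Timd4 (6 of 6 HR arrays) passed the filter without HQR arrays. With normexp background correction, which moved the median of all genes to -0.17, the fitted differences of Timd4, Vmn1r89 and Olfr599 were -0.39, -0.28 and -0.17. The larger share of detected probes on HQR arrays is given above, and its part in these 4 genes was not tested.

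In the mm9 coordinates of the array files, the probes lie at chr10:79439842-79439901 for Grin3b, chr13:59033742-59033799 for Ntrk2, chr13:36959214-36959273 for F13a1, chr19:16683973-16684032 for Gna14, chr19:32747400-32747459 for Atad1, chr4:43509370-43509429 for Arhgef39, chr14:57893984-57894043 for Cryl1 and chr2:90734839-90734898 for Ndufs3. Which part of each transcript they match was not analysed here.

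Most interferon response genes had lower means in HQR than in HQ livers. Of 37 measured genes of 39 listed, 33 lay below 0, with a median difference of -0.39, while 57.4% of all genes lay above 0, with a median of 0.04. None passed the adjusted threshold. In the list, 9 of 37 genes had an unadjusted p under 0.05, all lower, beside 0.467% of all genes. The 9 genes include Gbp6, Zbp1, Eif2ak2, Usp18, Gbp3, Rsad2, Oas1a and Mx2. Of these, Gbp6 and Zbp1 did not overlap between groups. Of all 21727 genes with a value on every HQ and HQR array, 14 (0.0644%) were lower without overlap.

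Gbp6, an interferon-inducible GTPase gene, was at 0.28, -0.21, 0.22, 0.13 and -0.80 in HQ replicates 1 to 5 and between -2.01 and -0.81 (median -1.12) in HQR livers. HQ replicate 5 and the highest HQR liver were close, and the difference was -1.12 ± 0.34. Zbp1, which encodes a sensor of Z-form nucleic acids, was at 1.97, 2.32, 2.31, 2.08 and 2.31 in HQ livers and between 0.09 and 1.91 (median 1.29) in HQR livers, a difference of -0.98 ± 0.35. The HQ livers varied little in Zbp1, and HQR replicate 4 held the lowest value. Eif2ak2, the gene of the double-stranded RNA-activated kinase PKR, was at -1.30, -1.29, -1.34, -0.95 and -1.73 in HQ livers and between -2.45 and -1.61 in HQR livers, a difference of -0.59 ± 0.22.

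Regulatory and effector genes of the response followed the same direction with larger overlap. Usp18, which removes the ubiquitin-like protein ISG15 and dampens receptor signalling, differed by -0.70 ± 0.26. Among antiviral effectors, Rsad2 (viperin) differed by -0.81 ± 0.33, Oas1a (an oligoadenylate synthetase) by -0.50 ± 0.20, Mx2 by -0.51 ± 0.23 and the GTPase gene Gbp3 by -0.57 ± 0.22. The 4 listed genes above 0 were Irf1, Ifi44, Irf7 and Iigp1, with Iigp1 the highest at 0.38.

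**Figure D2:**
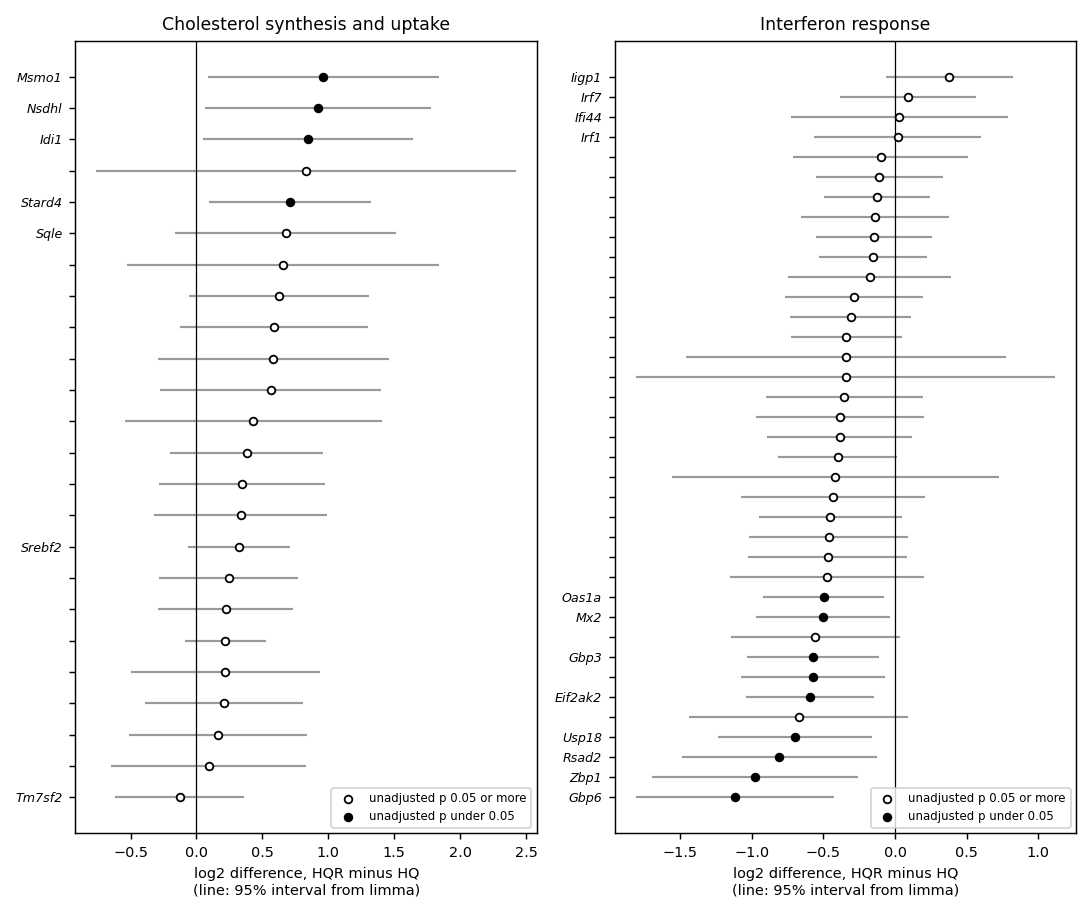
Log2 difference of HQR minus HQ (horizontal axes) for each measured gene of cholesterol synthesis and uptake (left, 24 genes) and of the interferon response (right, 37 genes), with lines for the 95% interval of the limma fit and filled points for an unadjusted p under 0.05; genes named in the text are labelled. The left-hand genes lie above 0 with the exception of Tm7sf2, and 33 of the 37 right-hand genes lie below 0, but most intervals include 0.

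The promoters of interferon-induced genes often hold the interferon-stimulated response element, with a core of GAAA, any 2 bases and GAAA again. RefSeq promoter sequences (GRCm38.p6) were found for 27 of the 37 genes, and in the 250 bases before the start 12 of these 27 held the core on either strand, compared with 3.46% of all 27025 genes in the table. Of the 9 genes above, those of 4 are shown, because they let the site be seen beside the measured difference, with each match in capitals:
Gbp3: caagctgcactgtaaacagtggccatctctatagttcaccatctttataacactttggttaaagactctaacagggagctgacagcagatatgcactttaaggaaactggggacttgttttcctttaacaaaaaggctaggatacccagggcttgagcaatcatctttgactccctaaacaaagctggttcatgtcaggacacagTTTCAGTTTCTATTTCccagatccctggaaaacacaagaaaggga
Oas1a: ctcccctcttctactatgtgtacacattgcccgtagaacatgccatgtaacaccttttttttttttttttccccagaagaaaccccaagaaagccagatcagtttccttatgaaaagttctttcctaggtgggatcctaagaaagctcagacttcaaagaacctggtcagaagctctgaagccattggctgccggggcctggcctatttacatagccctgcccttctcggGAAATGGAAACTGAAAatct
Rsad2: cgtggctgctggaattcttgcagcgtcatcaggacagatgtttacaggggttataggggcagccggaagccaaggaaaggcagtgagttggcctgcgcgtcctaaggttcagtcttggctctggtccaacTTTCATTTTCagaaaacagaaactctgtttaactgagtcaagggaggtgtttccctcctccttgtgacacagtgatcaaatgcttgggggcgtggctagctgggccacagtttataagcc
Eif2ak2: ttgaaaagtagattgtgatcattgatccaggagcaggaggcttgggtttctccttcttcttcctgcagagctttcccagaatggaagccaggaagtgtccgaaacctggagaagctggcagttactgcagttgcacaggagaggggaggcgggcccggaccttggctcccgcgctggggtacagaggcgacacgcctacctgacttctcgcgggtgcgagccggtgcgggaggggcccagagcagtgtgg
They cover chr3:142559794-142560043 on the + strand for Gbp3, the first of its 2 entries, and, on the - strand, chr5:120907526-120907775 for Oas1a, chr12:26456453-26456702 for Rsad2 and chr17:78882573-78882822 for Eif2ak2. Gbp3 and Oas1a each hold 2 overlapping matches, close to the start, Rsad2 holds 1 match 120 bases before it, and the letters of the core were not found in the Eif2ak2 window. A match describes the letters only.

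Measured per array, the interferon list's median relative to the mean of the 11 arrays was -0.05, 0.22, 0.31, 0.31 and 0.26 in HQ replicates 1 to 5 and between -0.31 and -0.01 in HQR livers. HQ replicate 1 was thus the lowest HQ liver, and it overlapped HQR replicate 5. The list's median difference was -0.34 within slide 1, where the median of all genes was 0.07, and -0.46 within scan day 4, where that of all genes was -0.0014. Within slide 2 it was -0.17, with 16 of 37 genes above 0, close to the median of -0.13 and the 41.1% above 0 of all genes. With slide as a block it was -0.21, with 32 of 37 genes below 0, and that of all genes -0.06. The number of list genes at an unadjusted p under 0.05 in limma was 3 with slide and 1 with scan day as a block. Over all 21850 genes, in both directions, it was 530 and 172, beside 312 in the main fit. Without HQR replicates 1 and 4 the list's median was -0.31, with 33 of 37 below 0 and 3 genes at such a p. It was -0.44 without HQ replicate 1, with 33 below 0 and 11 genes at such a p. Over all genes the number was 325 and 602 without these arrays. With HFD livers as the reference, arrays that both differences share, the median was 0.26 for HQ and -0.06 for HQR. For HR against HQ livers it was -0.25. Of the measured markers of lymphocytes (17), neutrophils (9) and macrophages (17), 1 had an unadjusted p under 0.05, Timd4, which was higher in HQR. The summed lymphocyte level was 0.79 to 1.13 on HQ and 0.74 to 1.23 on HQR arrays.

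Most genes of cholesterol synthesis and uptake had higher means in HQR than in HQ livers, a count that was smaller among livers of one slide. All 24 listed genes were measured and 23 lay above 0, with a median of 0.41, beside 57.4% of all genes above 0. None passed the adjusted threshold, and 4 had an unadjusted p under 0.05, all higher, beside 0.961% of all genes. Stard4, which encodes a cytosolic sterol carrier and is an SREBP-2 target, was at 1.76, 1.67, 1.22, 1.97 and 1.39 in HQ replicates 1 to 5 and between 2.06 and 2.75 (median 2.26) in HQR livers. It was the 1 gene of the list whose groups did not overlap, with a difference of 0.71 ± 0.30. Of all 21727 genes with a value on every HQ and HQR array, 15 (0.069%) were higher without overlap.

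The other 3 encode enzymes of sterol synthesis. Msmo1, the gene of methylsterol monooxygenase, was at 2.00, 3.09, 1.78, 3.06 and 1.69 in HQ livers and between 2.67 and 3.83 (median 3.38) in HQR livers, a difference of 0.96 ± 0.43. Nsdhl, a sterol dehydrogenase gene that acts in the same demethylation, was at -1.09, -0.64, -1.83, -0.92 and -1.98 in HQ livers and between -1.09 and 0.33 (median -0.42) in HQR livers, a difference of 0.92 ± 0.42. HQ replicates 2 and 4 lay within the range of the HQR livers for Msmo1, and for Nsdhl, where HQ replicate 1 equalled the lowest HQR liver to 2 decimals. Idi1, the gene of isopentenyl diphosphate isomerase, differed by 0.84 ± 0.39. The array files place both Idi1 probes on chromosome 2, while RefSeq places the gene on chromosome 13, so that this value may include signal of a related sequence. Sqle, the gene of squalene epoxidase, differed by 0.68 ± 0.41, and Srebf2, the gene of SREBP-2, by 0.32 ± 0.19. Tm7sf2, which encodes a sterol reductase, was the 1 gene below 0, at -0.13 ± 0.24.

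SREBP-2 acts on sterol genes together with the factor NF-Y, which binds CCAAT boxes. RefSeq promoters were found for 16 of the 24 genes, and all 16 held CCAAT on either strand in the 250 bases before the start, compared with 37.5% of all 27025 genes. A sterol regulatory element, searched as ATCAC, any base and CCAC, was found in 0 of the 16 and in 0.226% of all genes, which says nothing about binding of the factor. The promoters of the 3 enzyme genes with the smallest p are shown, with CCAAT or its reverse complement in capitals:
Idi1: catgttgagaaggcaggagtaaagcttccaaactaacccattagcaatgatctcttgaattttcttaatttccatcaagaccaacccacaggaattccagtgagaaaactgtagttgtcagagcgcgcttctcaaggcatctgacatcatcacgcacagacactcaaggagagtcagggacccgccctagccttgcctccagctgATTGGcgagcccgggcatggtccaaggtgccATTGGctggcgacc
Msmo1: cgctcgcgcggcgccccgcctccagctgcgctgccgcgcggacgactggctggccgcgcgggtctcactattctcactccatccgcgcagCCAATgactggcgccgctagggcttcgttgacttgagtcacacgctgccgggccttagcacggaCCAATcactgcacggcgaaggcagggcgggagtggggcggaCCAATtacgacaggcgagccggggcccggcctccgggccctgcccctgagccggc
Nsdhl: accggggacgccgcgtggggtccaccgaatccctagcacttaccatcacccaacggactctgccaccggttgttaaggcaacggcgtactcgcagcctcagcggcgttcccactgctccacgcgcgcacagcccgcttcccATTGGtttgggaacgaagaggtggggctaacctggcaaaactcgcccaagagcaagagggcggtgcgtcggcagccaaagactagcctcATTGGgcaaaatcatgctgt
They cover chr13:8885356-8885605 on the + strand for Idi1, chr8:64733579-64733828 on the - strand for Msmo1 and chrX:72918271-72918520 on the + strand for Nsdhl (GRCm38.p6). They hold 2, 3 and 2 matches.

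The size of the difference in cholesterol genes varied between the livers that shared a slide or a scan day. The list's median difference was 0.59 within slide 1, -0.08 within slide 2 and 0.74 within scan day 4, beside 0.07, -0.13 and -0.0014 for all genes. Within slide 2, 10 of 24 genes lay above 0, close to the 41.1% of all genes. With slide as a block the median was 0.11, with 15 of 24 above 0, beside -0.06 for all genes. No gene of the list had an unadjusted p under 0.05 in limma with slide (0) or scan day (0) as a block. Over all genes the number was 530 and 172. Per array, relative to the mean of the 11 arrays, the list's median was -0.52, 0.28, -0.69, 0.19 and -0.40 in HQ replicates 1 to 5, and between -0.10 and 0.58 in HQR livers. HQ replicates 2 and 4 thus lay within the range of the HQR livers, and the 3 other HQ livers below it. Without HQR replicates 1 and 4 the median was 0.50, with 23 of 24 above 0 and 1 gene at an unadjusted p under 0.05, and without HQ replicate 1 it was 0.28, with 22 above 0 and 3 such genes. The number of such genes was 7 without HQ replicate 2 or HQ replicate 4, 1 without HQ replicate 5 or HQR replicate 4, and 0 without HQ replicate 3 or HQR replicate 5. Over all genes, such genes numbered 325 without HQR replicates 1 and 4, and 602 without HQ replicate 1. Without HQ replicate 2, 3, 4 or 5 they numbered 566, 232, 260 and 333, and without HQR replicate 4 or 5, 254 and 361. Against HFD livers, arrays that both differences share, the list's median was -0.18 for HQ and 0.32 for HQR. For HR against HQ livers the median was 0.06, with 15 of 24 genes above 0.

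**Figure D3:**
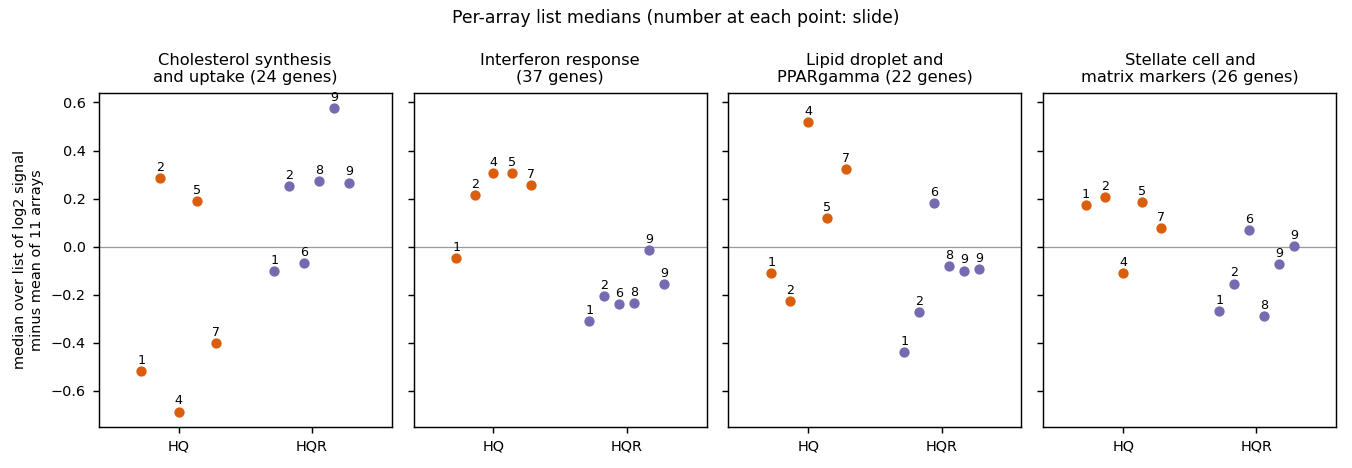
Median over the genes of 4 lists of the log2 signal minus the mean of the 11 arrays (vertical axis), for each HQ and HQR array (horizontal axis), with the slide number at each point. The interferon medians of HQR arrays lie at or below -0.01 and those of 4 HQ arrays at or above 0.22; the cholesterol medians of HQ arrays fall into 3 low and 2 high values.

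Most lipid droplet and PPARgamma target genes had lower means in HQR livers, a count that was smaller with slide as a block. Of 22 measured genes of 23 listed, 17 lay below 0, with a median of -0.22, and 3 had an unadjusted p under 0.05, all lower: Cidec, Cidea and Apoa4. Over all genes 57.4% lay above 0 and 0.467% were lower at that p. Cidec, which encodes a protein that enlarges lipid droplets, was at 3.35, 2.54, 4.51, 3.92 and 3.32 in HQ replicates 1 to 5 and between 1.15 and 2.80 (median 2.02) in HQR livers. HQ replicate 2 lay within the HQR range and the other HQ livers above it. The difference was -1.53 ± 0.58, or 2.88-fold lower, and it was -1.08, -1.11 and -1.25 within slide 1, slide 2 and scan day 4 and -0.96 with slide as a block. Cidec was at 3.45 ± 0.89 in HFD livers, 3.03 ± 0.81 in HR livers (SD, n = 6 each) and 0.27 ± 1.76 in SD livers (SD, n = 5).

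Cidea, of the same family, was at 4.78, 2.47, 6.21, 4.46 and 2.09 in HQ livers and between 0.71 and 3.73 (median 2.12) in HQR livers, a difference of -1.78 ± 0.80. HQ replicates 2 and 5 lay within the HQR range, and within scan day 4 the difference was 0.06. Apoa4, the gene of an apolipoprotein that rises with liver fat in mice, was at -1.69, -1.54, -0.50, -1.80 and 0.37 in HQ livers and between -2.94 and -1.44 (median -2.72) in HQR livers. Its difference was -1.47 ± 0.49, and 1 HQR liver, replicate 4, lay among the HQ livers. The list's median was -0.48 within slide 1, 0.08 within slide 2, -0.39 within scan day 4 and -0.09 with slide as a block. That of all genes was 0.07, -0.13, -0.0014 and -0.06. Within slide 2, 13 of 22 genes lay above 0, beside 41.1% of all genes, and with slide as a block 13 of 22 lay below 0. With that block 1 gene of the list had an unadjusted p under 0.05 in limma, beside 530 of all genes. The median was -0.45 without HQ replicate 2, -0.12 without HQR replicate 1 and -0.09, with 12 of 22 genes below 0, without HQ replicate 5. The remaining removals of an array left it between -0.27 and -0.15. Adipocyte markers were at a summed level of 0.79 to 1.36 on HQ and 0.82 to 1.1 on HQR arrays.

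Cyp2b9 and Cyp2b13, cytochrome P450 genes that are higher in female than in male liver and close in sequence, so that their probes may share signal, had lower means in HQR livers. Cyp2b9 was at 3.45, 3.30, 2.23, 2.17 and -0.07 in HQ replicates 1 to 5 and between -0.66 and 1.75 (median 0.43) in HQR livers, a difference of -1.67 ± 0.68. Cyp2b13 differed by -1.56 ± 0.62. In both genes HQ replicate 5 was far below the other HQ livers, and within its scan day the differences were 0.43 and 0.37. HFD livers were at 3.72 ± 0.37 for Cyp2b9 and HR livers at 0.82 ± 1.65 (SD, n = 6 each).

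Moxd1, a monooxygenase gene counted with the male-biased genes, was at -1.20, -2.03, -0.74, -2.38 and -2.31 in HQ replicates 1 to 5. In HQR livers it was between -4.50 and -3.08 (median -3.88), with no overlap. The difference was -2.07 ± 0.80, or 4.21-fold lower in HQR, and it was -1.88, -1.91 and -1.64 within slide 1, slide 2 and scan day 4. HFD livers were at -5.32 ± 0.85 with 1 of 6 arrays well above background, HR livers at -4.38 ± 1.30 with 3 of 6, and SD livers at -0.14 ± 2.73 (SD, n = 5). The HQR level thus lay between those of HQ and HFD livers. Cyp4a12a, a male-specific fatty acid hydroxylase gene, differed by 0.75 ± 0.34, with 2.11 within slide 2 and -0.14 within scan day 4. The probes of Cidec, Apoa4, Cyp2b9 and Moxd1 lie at chr6:113374693-113374752, chr9:46049661-46050404, chr7:26995607-26995666 and chr10:24022208-24022266 (mm9).

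**Figure D4:**
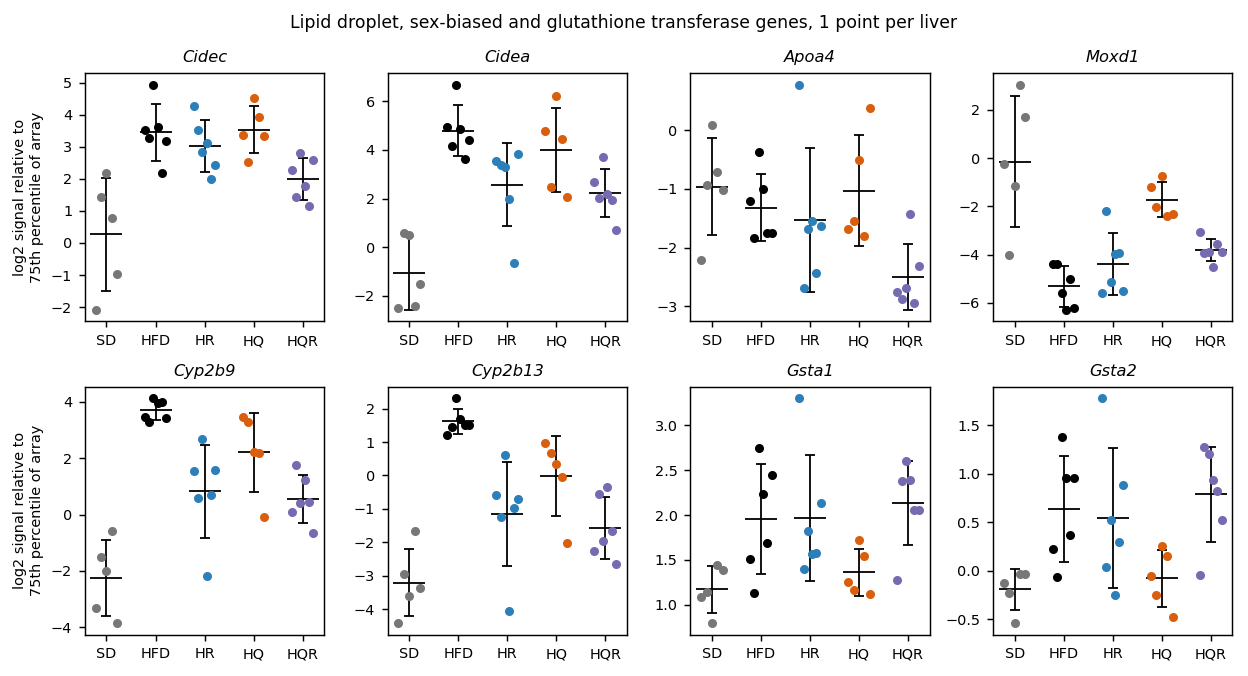
Log2 signal minus the array's 75th percentile (vertical axes) in the 5 diet groups (horizontal axes) for lipid droplet, sex-biased and glutathione transferase genes, with 1 point per liver and bars for the mean ± SD. Moxd1 separates all HQ from all HQR livers, and in Cyp2b9 and Cyp2b13 a single HQ liver lies within the HQR range.

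Conjugating enzymes were of interest because both compounds are cleared by them. Of 39 measured phase II genes of 40 listed, 6 had an unadjusted p under 0.05 and all 6 were higher in HQR (0.961% of all genes): Gsta2, Gsta1, Papss1, Sult2a8, Ugdh and Ugt2b5. The list as a whole did not lean one way, with 23 genes above 0 and a median of 0.05, which was -0.04 with scaling to the array median, -0.02 without HQ replicate 1 and -0.06 without HQ replicate 2. The number of phase II genes higher at an unadjusted p under 0.05 was 1 with scaling to the array median, which moved the median of all genes to -0.05, and 3 without HQ replicate 2. All genes at that p, in both directions, numbered 302 and 566 in these settings. Gsta2, a glutathione transferase gene of the alpha class, was at -0.06, -0.25, 0.25, 0.15 and -0.48 in HQ replicates 1 to 5 and between -0.05 and 1.28 (median 0.88) in HQR livers, a difference of 0.86 ± 0.30. HQR replicate 1 was the 1 HQR liver within the HQ range. Gsta1, a close paralog whose probe may share signal, differed by 0.77 ± 0.30, and both were near 0 within slide 1 (0.01 and 0.03) and above 1 within slide 2 and scan day 4 (1.52 and 1.35 for Gsta2). Papss1, which makes the sulfate donor of sulfation, differed by 0.42 ± 0.17, with no value in HQ replicate 1. With HFD livers as the reference, arrays that both differences share, the list's median was -0.28 for HQ and -0.05 for HQR. Gsta2 differed from HFD livers by -0.71 in HQ and 0.15 in HQR livers, Gsta1 by -0.60 and 0.17, and Papss1 by -0.29 and 0.13. These means were thus nearer to the HFD level in HQR than in HQ livers.

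Of 36 NRF2 targets and antioxidant genes, 16 lay above 0 (median -0.01), beside 57.4% of all genes, and 2 had an unadjusted p under 0.05, both higher in HQR, beside 0.961% of all genes. Txnrd1, the gene of thioredoxin reductase, was at 4.76, 5.18, 5.49 and 5.72 in HQ replicates 1 to 4, with no value in replicate 5, and between 5.49 and 6.25 in HQR livers, a difference of 0.53 ± 0.19. Gclm, the modifier subunit of glutamate-cysteine ligase, differed by 0.42 ± 0.19, but by -0.06 with normexp background correction. From HFD livers, Txnrd1 differed by -0.51 in HQ and 0.01 in HQR livers, and Gclm by -0.39 and 0.03. Nqo1, the classic NRF2 target, was at -1.53 ± 0.95 in HQ (SD, n = 5) and -1.72 ± 0.78 in HQR livers (SD, n = 6), a difference of -0.20 with a 95% interval from -1.05 to 0.66. Hmox1, the gene of haem oxygenase 1, differed by 0.18 with an interval from -0.58 to 0.93.

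Genes often followed with these compounds did not pass, and their intervals show what the arrays could resolve. Sirt1 was at 2.90 ± 0.40 in HQ and 2.80 ± 0.43 in HQR livers, a difference of -0.11 with a 95% interval from -0.66 to 0.44, so that a 2-fold difference in its mRNA lay outside the interval. Of 24 genes of sirtuins, AMPK and PGC-1alpha, 12 lay above 0 and 12 below, and 0 had an unadjusted p under 0.05 in limma. Cyp1a1, the classic target of the aryl hydrocarbon receptor, differed by 0.48 with an interval from -0.43 to 1.40, and HQ replicate 1 was at -1.11 while the other HQ livers lay between -3.96 and -3.50. Fgf21, a liver hormone gene, was at -1.51, 0.06, 1.01, -1.54 and 1.57 in HQ livers and between -2.78 and 1.46 (median -2.19) in HQR livers, a difference of -1.49 with an interval from -3.19 to 0.20. The other genes of the fixed set, Pparg, Cd36, Cfd, Cyp1a2, Srebf1, Fasn, Scd1, Cyp7a1, Cyp4a14, Slc2a2, Hao2, Ppargc1a and Cyp2b10, had differences between -0.55 (Cyp7a1) and 0.51 (Cyp2b10), and all of their intervals included 0. Cyp2b10 was well above background on 0 of 5 HQ and 1 of 6 HQR arrays. The signs for Sirt1, Cyp1a1, Nqo1 and Hmox1 each turned under at least 1 other setting. Of 11 measured aryl hydrocarbon receptor genes 7 lay above 0 (median 0.02).

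Markers of cells other than hepatocytes were compared in the same way. Of 26 markers of stellate cells and extracellular matrix, 22 lay below 0 (median -0.23), and 4 had an unadjusted p under 0.05, all lower in HQR: Mmp2, Col6a1, Loxl1 and Dcn (0.467% of all genes). Of the 4 markers above 0, Lrat was the highest, at 0.26. With all probes of a gene averaged, 9 of the 26 lay above 0, with a median of -0.13. With slide as a block 1 gene of the list was lower and 1 higher at an unadjusted p under 0.05 in limma. With scan day as a block 1 was lower. All genes at that p numbered 530 and 172 with these blocks. Mmp2, which encodes a gelatinase, was at -3.23, -2.31, -2.27, -2.61 and -2.90 in HQ replicates 1 to 5 and between -3.96 and -2.86 (median -3.21) in HQR livers, a difference of -0.63 ± 0.26. Col6a1, a collagen gene, differed by -0.55 ± 0.25 and Loxl1, the gene of a collagen-crosslinking oxidase, by -0.72 ± 0.33, with -2.71 within slide 1 and 0.02 within slide 2. The list's median was -0.22 within slide 1, -0.22 within slide 2, -0.27 within scan day 4 and -0.23 with slide as a block. Against HFD livers, arrays that both differences share, the list's median was 0.22 for HQ, with 24 of 26 genes above 0. For HQR it was 0.01, with 13 of 26 above 0. Its summed level was 0.99 to 1.6 on HQ and 0.90 to 1.09 on HQR arrays, with the highest value in HQ replicate 1, the array with the high muscle markers. Without that array 17 of 26 genes lay below 0 (median -0.20), and 3 had an unadjusted p under 0.05, beside 602 of all genes. The part of the muscle-marker signal in this list was not tested. No gene of the list had such a p in limma without HQR replicate 4 (0 lower), 1 without HQ replicate 5, and 2 without HQ replicate 4 or HQR replicate 2. All genes at such a p numbered 254, 333, 260 and 324 without these arrays, in the same order.

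Bile duct markers lay above 0 in 14 of 16 genes over all arrays and in 14, 7 and 6 within slide 1, slide 2 and scan day 4, with 0 at an unadjusted p under 0.05 in limma and summed levels of 0.80 to 1.12 on HQ and 0.84 to 1.33 on HQR arrays. Sinusoidal endothelial markers lay above 0 in 8 of 17 genes (median -0.07), and their summed levels were 0.92 to 1.18 and 0.83 to 1.17. Among the other lists, 2 of 50 oxidative phosphorylation genes had an unadjusted p under 0.05, Ndufs3 and Ndufb9 (0.32 ± 0.13), both higher in HQR (0.961% of all genes), while 31 of the 50 lay below 0. The median of that list was -0.56 within slide 1 and 0.85 within slide 2, so that its direction differed between pairs of livers. H2-Q10, a class I MHC gene of the liver, differed by 0.42 ± 0.19, and Rhbg, an ammonia channel gene of pericentral hepatocytes, by -0.65 ± 0.28. The lists of immediate early, heat shock and circadian clock genes held 0 genes at an unadjusted p under 0.05 in limma. Each list leaned one way over all arrays, where 57.4% of all genes lay above 0, but less evenly within slides and scan day 4. Of the immediate early genes, 17 of 19 lay above 0 (median 0.21). Within slide 1, slide 2 and scan day 4, 12, 9 and 9 of 19 did, beside 55.3%, 41.1% and 49.8% of all genes. Relative to the mean of the 11 arrays, the median of the immediate early list was 1.05 in HQR replicate 4. It was between -0.43 and 0.09 in the other HQR livers and between -0.47 and 0.17 in HQ livers. Of the heat shock genes 16 of 20 lay below 0 (median -0.14), and of the clock genes 14 of 19 (median -0.20). The heat shock median was -0.94 within slide 1 (1 of 20 genes above 0), 0.49 within slide 2 (18 of 20) and -0.33 within scan day 4 (3 of 20). The clock median was 0.01, -0.01 and 0.25 within slide 1, slide 2 and scan day 4. PPARalpha targets, lipogenic, ribosomal, acute phase, cell cycle and inflammatory genes had medians between -0.09 and 0.01, with 0 genes of these 6 lists at an unadjusted p under 0.05 in limma. Some of these medians differed between slide 2 and scan day 4. The ribosomal median was 0.43 within slide 2 (41 of 47 genes above 0) and -0.53 within scan day 4 (1 of 47). The PPARalpha median was 0.29 (31 of 37 above 0) and -0.61 (3 of 37), and the acute phase median 0.0036 and -0.43.

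**Figure D5:**
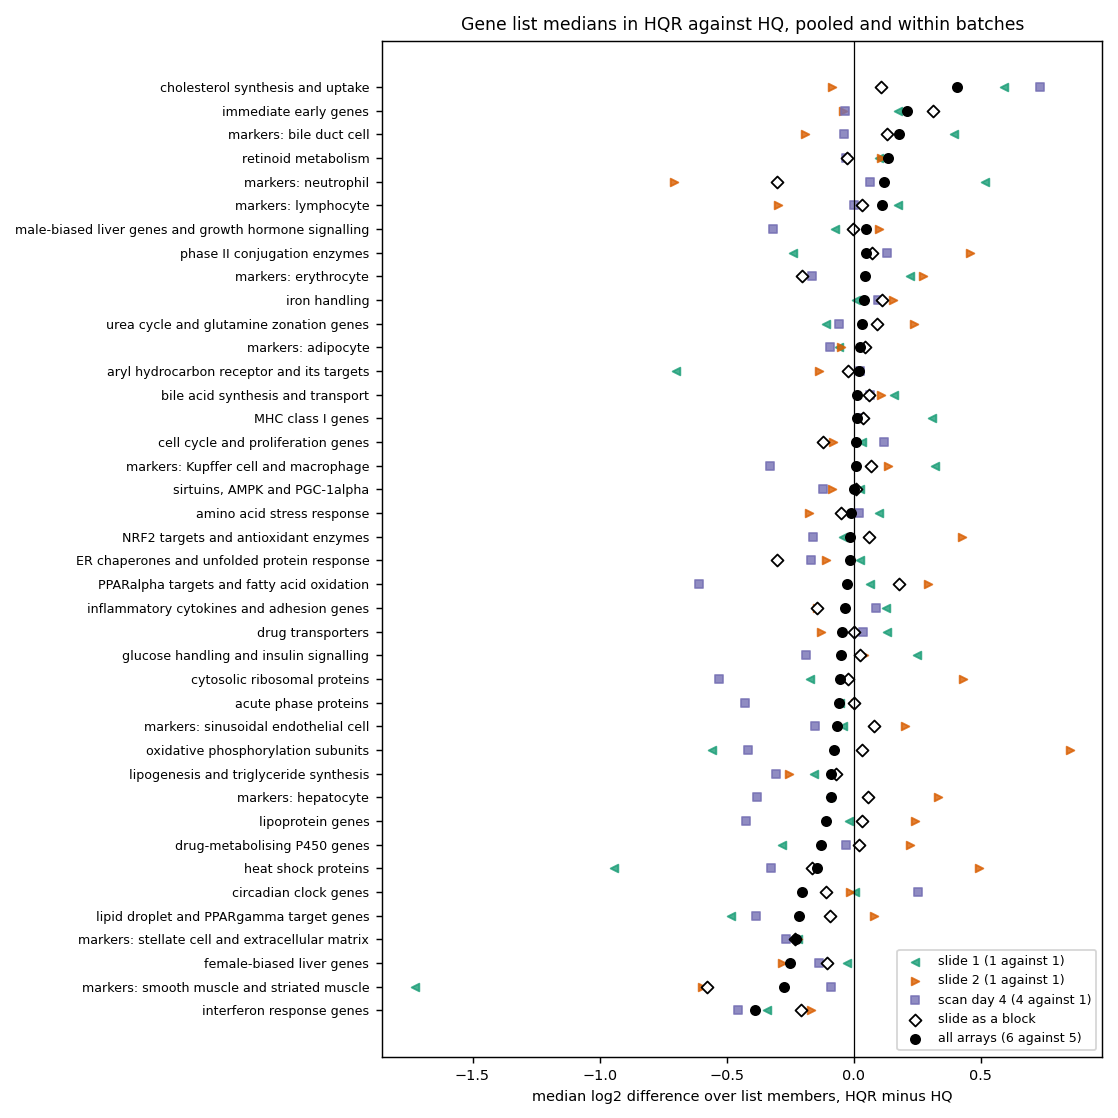
Median log2 difference of HQR minus HQ over the measured members of 40 gene lists (horizontal axis), for all arrays, with slide as a block, and within slide 1, slide 2 and scan day 4. The zero line is not the level of all genes, whose median was 0.07 within slide 1, -0.13 within slide 2, -0.0014 within scan day 4 and -0.06 with slide as a block; within slide 2 the interferon list (-0.17) and the cholesterol list (-0.08) both lie near it.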

How the data were processed

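RNA of single livers was hybridised to 1-colour Agilent arrays, 28 in all. Per the file headers, the deposited intensity values were background-subtracted by Feature Extraction 10.5.1.1, with probe coordinates in mm9. The authors' deposited value table holds a score per probe and array, which followed the scanner log2 values with a correlation of at least 0.999946 and a factor of 3.25 log2 units per score; it served as an alternative, and its centring is unknown. Here log2 signals were averaged over the spots of a probe, flagged spots were dropped, and each array's 75th percentile was subtracted. Of 41174 probes, 32078 were well above background on at least 5 arrays, and the brightest probe stood for each of 21850 genes. A gene without a value on an array was fitted on the others (123 genes for HQ and HQR). Limma 3.58.1 in R 4.3.3 was fitted to all 28 arrays, with HQR minus HQ as the contrast, Benjamini-Hochberg adjustment and a threshold of 0.05. The code was also run on simulated arrays with independent noise in each gene and no slide or scan day effect. How the fit behaves under such effects was not tested.

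Replicates are separate mice, by the labels, and arrays were grouped by title. The comparison, gene lists and tests were chosen with earlier results of these data known. Genes are named as the 10 smallest p-values in each direction (6 higher genes without a symbol were passed over), up to 3 per list, and a fixed set. Further list members, such as Dcn, Mx2, Sqle or Iigp1, were named after their values were seen, and some members are not reported here. Summed marker levels are means over a list of the linear signal relative to the 28-array mean. Alternatives changed the background correction, scaling, dim-probe filter, probe choice, variance model, arrays fitted and blocks; leaving out HQR replicates 1 and 4, and using scan day 4 alone, were chosen after seeing the data.

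The replicate numbers were checked for pairing: deviations of same-numbered HQ and HQR arrays correlated by 0.608, 0.194, 0.381, -0.303 and 0.0983, so the numbers were not taken to pair the mice.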

Additional observations from a re-analysis of the deposited data

Results flagged for a closer look

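In 11 of 144 groups of values examined, 1 liver lay far from the others of its group, where chance gives about 5%. HQ replicate 1 had a muscle marker level of 4.60 (the next HQ liver 0.94), Cyp1a1 at -1.11 (next -3.50) and the lowest interferon median of the HQ livers, -0.048 (next 0.22). HQ replicate 2 had Vmn1r89 at -4.15 (next -5.64). HQR replicate 4 was low in Gbp6 at -2.01 (next -1.14), in Oas1a at -1.72 (next -1.07) and in Sirt1 at 1.97 (next 2.84). HQR replicate 5 was high in Usp18 at -0.64 (next -1.20). HQR replicate 2 was high in Arhgef39 at -0.45 (next -1.29). HQR replicate 3 was high in Fgf21 at 1.46 (next -1.41) and in the stellate cell and matrix marker level at 1.09 (next 0.95).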

How the results depend on the processing

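No gene passed the adjusted threshold under any alternative run with 2 or more HQ arrays, and unadjusted p-values under 0.05 numbered 172 (scan day as a block) to 1568 (array weights). With scan day 4 alone, where 1 HQ array met 4 HQR arrays and is assumed to vary like the others, 4 genes passed in limma: Zfp142, AK081157, Mtfmt and Rgs4. The number of genes whose HQR and HQ values do not overlap was 19 with scaling to the array median, 143 without HQR replicates 1 and 4, and 37 to 165 with single arrays left out; fewer arrays overlap less. The interferon list's median was -0.21 with slide as a block. With the replicate block, 0 genes passed (347 at an unadjusted p under 0.05), the cholesterol median was 0.34 and the interferon median -0.37, and it changed no call; only HQ replicate 1 matched its own number best. Of 55 genes followed through the alternatives, 40 kept their sign in all of up to 27 settings. Signs turned with normexp for Vmn1r89 (-0.28), Timd4 (-0.39), Olfr599 (-0.17), Tm7sf2 (0.11), Gclm (-0.058), Sirt1 (0.13) and Cyp1a1 (-0.31), with the mean of all probes for Slc17a3 (0.25), with array weights for Hmox1 (-0.049), with slide as a block for Cyp1a1 (-0.023) and Nqo1 (0.20), with scan day as a block for Sirt1 (0.025), and without HQR replicates 1 and 4 for Tm7sf2 (0.050) and Nqo1 (0.064). They also turned on scan day 4 alone for Cidea (0.061), Cyp2b9 (0.43), Cyp2b13 (0.37), Cyp4a12a (-0.14), Rhbg (0.00093) and Hmox1 (-0.31). With single arrays left out, Tm7sf2 ranged from -0.26 to 0.0035, Sirt1 from -0.26 to 0.058, Nqo1 from -0.58 to 0.072 and Hmox1 from -0.042 to 0.32. The cause of these turns was not tested. Dim probes limit the receptor genes and Timd4 to bounds.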
